A study of Mus musculus with 28 samples.

Results

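The 10 genes described here are p53 (Trp53) and 9 genes that p53 switches on and that feed back on p53 or act downstream of it: Mdm2, Mdm4, Ccng1, Ppm1d, Phlda3, Trp53inp1, Zmat3, Eda2r and Plk2. They were chosen by name, and their levels and their changes on treatment were read in 14 mouse B-cell lymphomas. Of the 10 genes, 9 were measured, through 19 probe sets out of 45101 on the array and among 18193 genes tested. The annotation supplied for the array lists no probe set for Trp53, so p53 transcript levels are not analysed here. Where a gene had several probe sets, the brightest was used and the others served as a check.

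All lymphomas arose in C57BL/6 mice carrying the Emu-myc transgene, in which an immunoglobulin enhancer drives the Myc oncogene in the B-cell lineage. Cells from lymph nodes were transduced with a retrovirus for the apoptosis inhibitor Bcl2 and selected with puromycin, and this holds for both groups. Each lymphoma gave 1 untreated culture and 1 culture kept for 5 days in 0.05 µg/ml Adriamycin (ADR, doxorubicin), a drug that breaks DNA by poisoning topoisomerase II. This made 28 arrays, 14 per group, set up as matched pairs of cells before and after induction of senescence. The cells grew on NIH 3T3 cells, a mouse fibroblast line irradiated with 20 Gy, and the labels name no sort that parts the lymphoma cells from this feeder. With 1 array per lymphoma and condition, the p-values measure the spread between lymphomas, and the labels do not say whether each came from a mouse of its own. The labels describe 11 lymphomas as a re-analysis of an earlier series, and the other 3 are 5043, 9583 and 9584.

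p53 is a transcription factor that is stabilised by kinases of the DNA damage response and then activates genes for cell cycle arrest, repair and cell death. Several of its targets restrain it again. Mdm2 is the ubiquitin ligase that sends p53 to degradation, Mdm4 is a related protein that binds and blocks its activation domain, and Ppm1d (Wip1) is the phosphatase that removes activating phosphates from p53 and its kinases. Cyclin G1, the product of Ccng1, acts with a phosphatase on Mdm2. In Emu-myc lymphomas p53 and its regulators are a frequent point of selection, because Myc itself activates the pathway.

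Short promoter windows of these genes were searched for the p53 motif. p53 binds as a tetramer to a pair of copies of a degenerate 10-base motif, the p53 half-site, which reads the same on both strands as a consensus. RefSeq windows of 250 bases before the transcription start (GRCm38.p6) were found for 7 of the 9 measured genes (not for Trp53inp1 and Zmat3), and those of Mdm2, Ccng1 and Ppm1d hold 1 half-site each. They are printed 5′ to 3′ on the strand of the gene, with the half-site in capitals. The Mdm2 window is chr10:117710759-117711008 on the minus strand, the Ccng1 window chr11:40755287-40755536 on the minus strand, and the Ppm1d window chr11:85311004-85311253 on the plus strand.
Mdm2: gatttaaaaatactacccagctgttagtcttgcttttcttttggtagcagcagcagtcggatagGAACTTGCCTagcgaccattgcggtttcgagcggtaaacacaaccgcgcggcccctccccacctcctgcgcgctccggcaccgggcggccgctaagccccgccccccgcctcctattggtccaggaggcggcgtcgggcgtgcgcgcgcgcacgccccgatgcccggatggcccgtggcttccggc
Ccng1: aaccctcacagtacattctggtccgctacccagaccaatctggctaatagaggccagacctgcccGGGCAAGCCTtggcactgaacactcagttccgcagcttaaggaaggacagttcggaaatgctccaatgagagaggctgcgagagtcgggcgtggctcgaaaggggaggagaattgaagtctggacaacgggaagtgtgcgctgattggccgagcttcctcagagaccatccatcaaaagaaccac
Ppm1d: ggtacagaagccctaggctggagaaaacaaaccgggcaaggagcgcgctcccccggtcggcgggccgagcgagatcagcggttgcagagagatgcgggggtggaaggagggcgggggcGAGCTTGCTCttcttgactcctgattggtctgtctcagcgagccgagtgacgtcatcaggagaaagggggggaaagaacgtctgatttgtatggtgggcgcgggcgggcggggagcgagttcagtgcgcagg
The half-site of Mdm2, GAACTTGCCT, lies 186 to 177 bases before the start, and that of Ccng1, GGGCAAGCCT, lies 185 to 176 bases before it. In Ppm1d the half-site is GAGCTTGCTC, 132 to 123 bases before the start. The motif occurs in 7.13% of all 32851 windows of this length, and in 8.2% of the 27025 genes that have one. The windows of Mdm4, Phlda3, Eda2r and Plk2 hold no match. Only single matches to the consensus were sought, sequence outside the windows was not searched, and p53 binding was not tested. Of the 3 genes with a half-site, Mdm2 and Ccng1 were higher after ADR and Ppm1d did not pass the test, and Phlda3, with the largest change of the 9, has none in its window.

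The deposited values are log2 levels, and a change is the difference ADR minus untreated within a lymphoma. Changes were tested by limma with the lymphoma as a block and adjusted by Benjamini-Hochberg over all genes. Of all genes tested, 2790 were higher after ADR (15.3%) and 2435 were lower (13.4%), with 2007 higher and 4207 lower when each array was centred on its median. Of the 9 measured genes, 6 were higher after ADR (Mdm2, Ccng1, Phlda3, Trp53inp1, Eda2r and Plk2), 0 were lower (limma, with 0 also at an unadjusted p under 0.05) and 3 did not pass (Mdm4, Ppm1d and Zmat3). Their median change was 0.87 against -0.0011 over all genes. All 14 measured genes of a mitotic list fell, by a median of 2.10 on the log2 scale.

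Markers of other cells moved with the treatment. Of 24 measured fibroblast genes 23 were higher after ADR, and the mean level of the list ran from 4.59 to 5.38 in untreated arrays and from 4.92 to 9.00 in ADR arrays. Of 15 macrophage genes 11 were higher, with list means of 5.09 to 8.43 and 6.24 to 9.40. B-cell markers were present in both groups, with list means of 8.43 to 9.74 and 7.14 to 9.88, and 5 of 9 were lower. Of 9 T-cell genes 1 was higher (Thy1, which is also on the fibroblast list), and the list means lay between 4.24 and 5.31. For 6 endothelial genes they lay between 4.65 and 5.35, and 2 of the 6 were lower. In bulk samples of this kind, fewer cells of a type and less RNA per cell cannot be told apart. To give the members beside the fibroblast signal, each change was also fitted with the change of the fibroblast list as a covariate and read at no fibroblast change. That value lies at the low edge of the data, where lymphoma 1467 had a fibroblast change of -0.10 and lymphoma 403 stood at the top with 4.11. In this fit 1061 genes were higher (5.83%) and 933 lower (5.13%), and 0 of the 9 members passed the test in either direction, with 4 higher and 0 lower at an unadjusted p under 0.05.

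**Figure D1:**
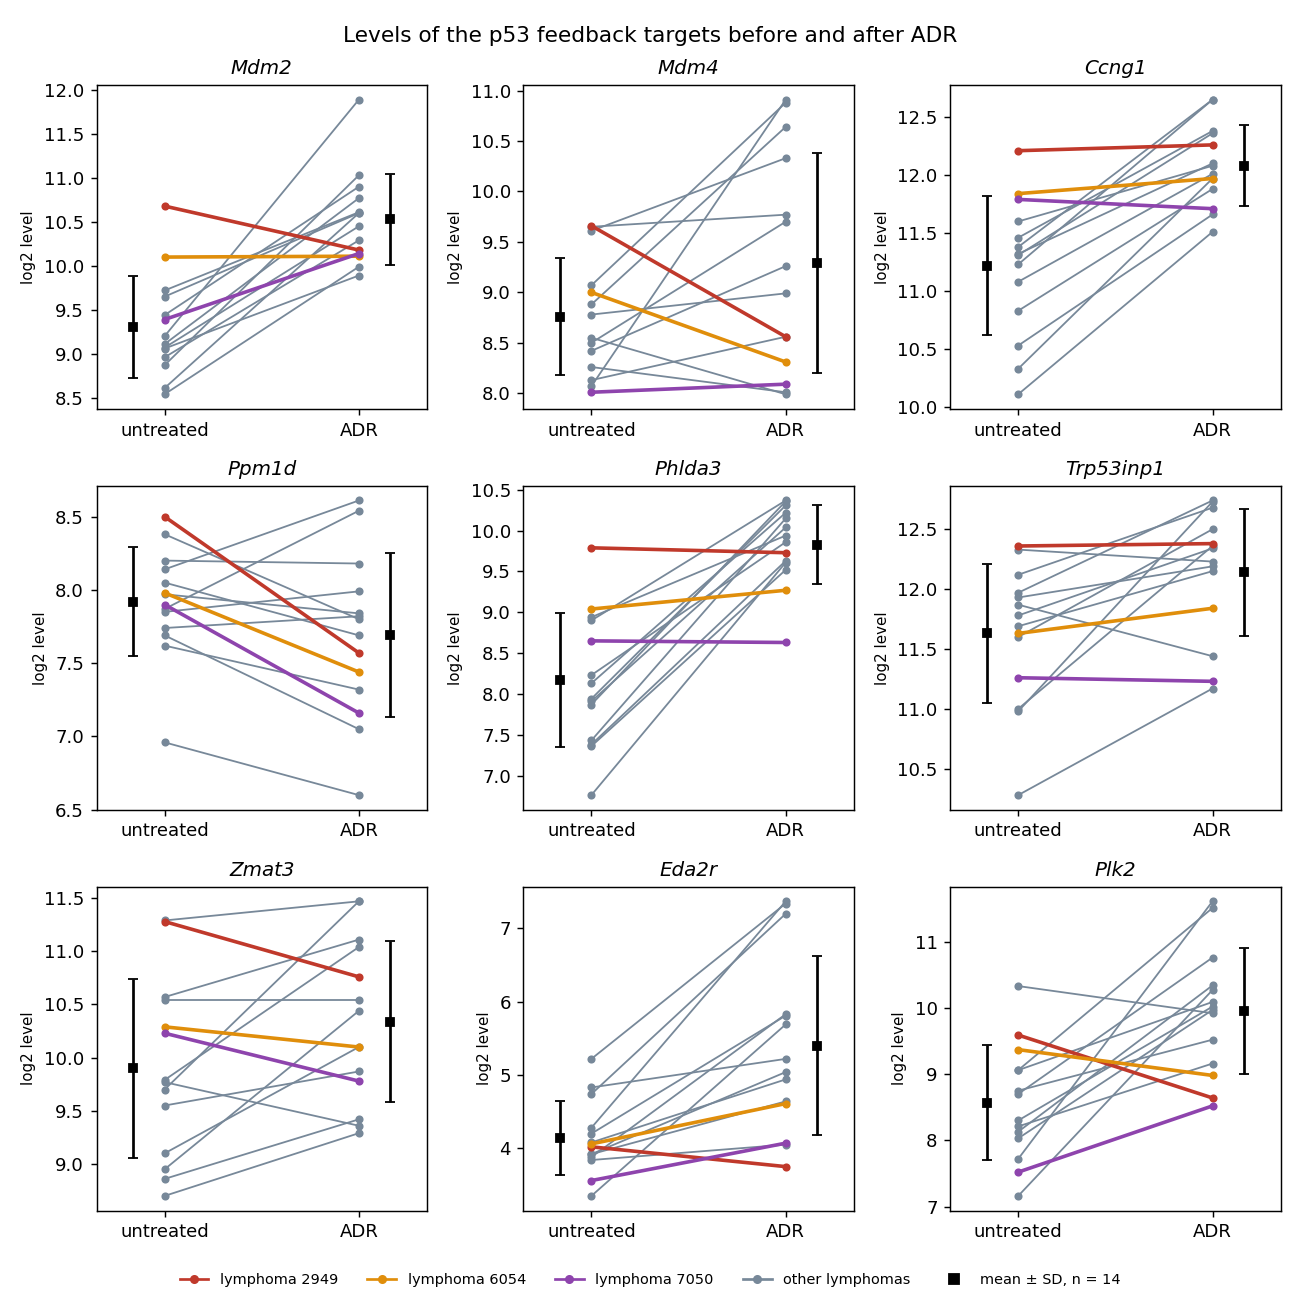
Log2 level (y axis, a separate scale for each gene) of the 9 measured genes in untreated and ADR cultures (x axis). Each line joins the 2 arrays of a lymphoma, and black squares with bars are the mean ± SD of 14. The groups overlap for every gene. Lymphoma 2949 (red) starts at or near the top of most panels and does not rise, while the Phlda3 lines show the steepest common rise.

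Among the restraints on p53, Mdm2 was higher after ADR in 13 of 14 lymphomas. Its untreated level ran from 8.54 in lymphoma 2581 through a median of 9.16 to 10.68 in 2949, and its ADR level from 9.89 in 1467 through 10.52 to 11.89 in 9584. The groups overlapped, with 4 ADR arrays above every untreated array, and the high untreated value of 2949 stood above most ADR values. The mean rose from 9.31 ± 0.58 to 10.53 ± 0.52 (SD, n = 14), a change of 1.22 ± 0.20 (SE) on the log2 scale or 2.33-fold (limma adjusted p = 3.11e-04). Only 2949 went down, by 0.50, and lymphoma 6054 was flat at 10.10 and 10.11. The second Mdm2 probe set gave 1.10 ± 0.26 (adjusted p = 0.00468, for such further probe sets over all probe sets with 1 gene) and the third, dim at 3.48 untreated and 3.97 after ADR on average, gave 0.49 ± 0.11 (adjusted p = 0.00383), so all Mdm2 probe sets were higher. At no fibroblast change Mdm2 stood at 0.94 ± 0.35 (adjusted p = 0.101), and its change correlated with that of the fibroblast list at r = 0.24 over 14 lymphomas (permutation p = 0.398, adjusted 0.514). With the macrophage list r was 0.34 (permutation p = 0.238, adjusted 0.511). With the mitotic list it was 0.61 (permutation p = 0.0235, adjusted 0.296), and 0.34 without 2949 and 6054.

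Mdm4 did not pass the test, and the lymphomas disagreed in direction. Untreated levels ran from 8.01 in 7050 through 8.67 to 9.66 in 2949, and ADR levels from 7.99 in 5560 through 9.13 to 10.91 in 1570. The ADR arrays reached both above and below the untreated range, with 6 above every untreated array and 1 below, and the SD was 0.58 in the untreated and 1.09 in the ADR group, a difference that was not tested. The mean change was 0.53 ± 0.27 (limma adjusted p = 0.16), with 10 of 14 higher and single values from -1.10 in 2949 to 2.84 in 1570. The 4 largest values came from 1570 (2.84), 9583 (1.80), 9584 (1.76) and 3769 (1.21). The ADR array of 1570 also stood apart in RNA quality, with a Gapdh 3′ minus 5′ signal of 0.92 where the next array had 0.38, and the part of this in its values was not tested.

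The Mdm4 probe sets did not give the same picture. The second (0.57 ± 0.21, adjusted p = 0.0598) tracked the brightest over the lymphomas at r = 0.93, whereas the third (0.06 ± 0.07, adjusted p = 0.609) did not track it (r = 0.0044). The fourth, near the low end of the scale at 4.02 in untreated arrays, was lower by 0.23 on average (-0.23 ± 0.08, adjusted p = 0.0476). Within lymphomas, the change of Mdm2 exceeded that of Mdm4 by 0.69 ± 0.21 (SE, n = 14; exact two-sided sign-flip permutation p = 0.00879), in 12 of 14 lymphomas. The difference ran from -0.91 in 9583 to 2.22 in 5560, and averaged 0.81 in the 11 lymphomas and 0.25 in the other 3. With the mean of all probe sets it was 0.71 ± 0.17 (exact p = 0.00159, n = 14). With the fibroblast covariate Mdm4 stood at 0.91 ± 0.45 (limma adjusted p = 0.238), and the difference of Mdm2 over Mdm4 was 0.02 ± 0.31 (SE of a linear regression over the 14 lymphomas, chosen after the data were seen), so it was not seen in that fit.

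Ppm1d, the phosphatase, was no higher on average after ADR. Untreated levels ran from 6.96 in 5560 through 7.93 to 8.50 in 2949, and ADR levels from 6.60 in 5560 through 7.75 to 8.61 in 9583. The ranges lay almost on top of each other. The change was -0.23 ± 0.12 (limma adjusted p = 0.162), lower in 10 of 14 lymphomas and highest in 1570, at 0.67. Its other probe set gave -0.31 ± 0.11 and passed (adjusted p = 0.0359), lower in 11 of 14. With arrays centred on their median Ppm1d passed as lower (-0.33, adjusted p = 0.0421), as it did without lymphoma 1570 (-0.30, adjusted p = 0.0452), whereas the fibroblast covariate left it at 0.01 ± 0.19 (adjusted p = 0.985).

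Ccng1 and Phlda3 rose with the smallest adjusted p-values of the 9 genes. Ccng1 ran from 10.11 in 2581 through 11.32 to 12.21 in 2949 in untreated arrays, and from 11.51 in 2581 through 12.04 to 12.65 in 1570 in ADR arrays. The lowest ADR array was above the untreated median, and 5 ADR arrays were above every untreated one. The change was 0.87 ± 0.13 or 1.82-fold (limma adjusted p = 1.63e-04), higher in 13 of 14 lymphomas, and the exception, 7050, differed by -0.08. The other Ccng1 probe sets gave 0.91 ± 0.17 and 1.01 ± 0.17 (adjusted p = 9.43e-04 and 4.17e-04). With the covariate Ccng1 was 0.67 ± 0.23 (adjusted p = 0.0753).

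Phlda3 encodes a small pleckstrin-homology domain protein that competes with the kinase Akt for membrane lipids. It had the largest change of the 9 genes. Its untreated levels ran from 6.76 in 2581 through 8.03 to 9.79 in 2949, and its ADR levels from 8.63 in 7050 through 9.90 to 10.37 in 5043. In ADR arrays 8 of 14 were above every untreated array, and without 2949 the highest untreated value was 9.04, in 6054. The change was 1.66 ± 0.24 or 3.17-fold (limma adjusted p = 1.03e-04), higher in 12 of 14, with 2949 at -0.05 and 7050 at -0.01. At no fibroblast change it was 1.14 ± 0.40 (adjusted p = 0.0814). The SD between lymphomas was 0.82 in untreated and 0.48 in ADR arrays, and this difference was not tested.

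Trp53inp1, a stress protein that binds p53 and takes part in its phosphorylation, rose by less. Untreated levels ran from 10.28 in 403 through 11.73 to 12.36 in 2949, and ADR levels from 11.17 in 403 through 12.28 to 12.74 in 9583. The groups overlapped over most of their range. The change was 0.51 ± 0.15 or 1.43-fold (limma adjusted p = 0.015), higher in 11 of 14 and lowest in 5560 at -0.42. Its other probe set gave 0.40 ± 0.18 (adjusted p = 0.13), and in the fit without the lymphoma block the adjusted p was 0.0739. At no fibroblast change the value was 0.75 ± 0.25 (adjusted p = 0.0678).

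Zmat3, a zinc-finger protein that binds RNA, had a mean change below its SD between lymphomas, which was 0.84 in untreated and 0.76 in ADR arrays. It ran from 8.70 in 403 through 9.78 to 11.29 in 5043 when untreated, and from 9.29 in 403 through 10.27 to 11.47 in 5043 after ADR, so the same lymphomas held the ends of both ranges. The change was 0.44 ± 0.18 (limma adjusted p = 0.0835), higher in 10 of 14, from -0.52 in 2949 to 1.77 in 1570. Without lymphoma 2949 Zmat3 passed the test (0.51, adjusted p = 0.0432).

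**Figure D2:**
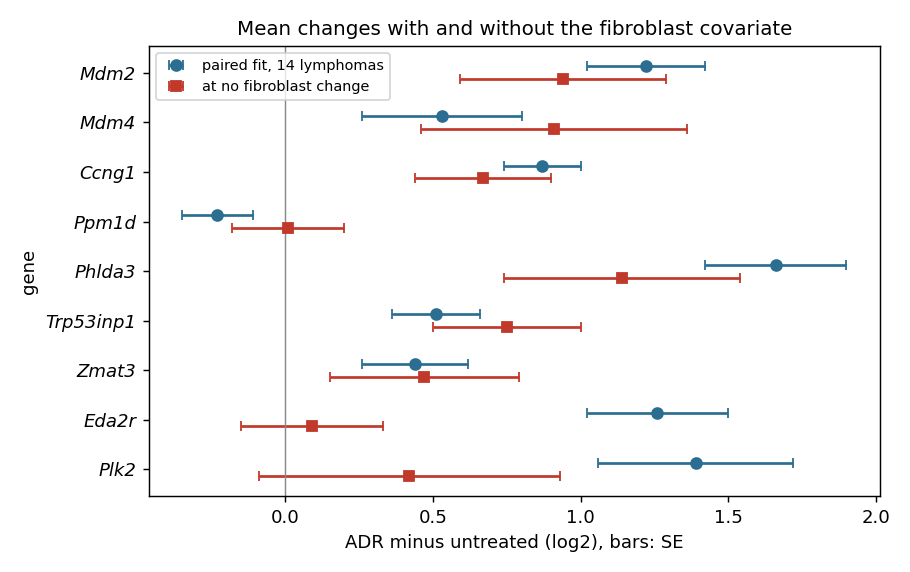
Mean ADR minus untreated change (x axis, log2) of each gene (y axis) in the paired fit over 14 lymphomas (blue circles) and as the value at no fibroblast change (red squares), with SE bars. Mdm2, Ccng1 and Phlda3 keep values of 0.67 or more in both fits, Trp53inp1 goes from 0.51 to 0.75, while Eda2r goes from 1.26 to 0.09 and Plk2 from 1.39 to 0.42.

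Eda2r, a receptor of the tumour necrosis factor receptor family, and Plk2, a polo-like kinase, both rose, and of the 9 genes their changes had the highest correlations with those of fibroblast genes. Eda2r was dim in untreated arrays, from 3.35 in 3769 through 4.04 to 5.22 in 9583, and ran from 3.75 in 2949 through 5.13 to 7.37 in 403 after ADR. The ADR values formed a long upper tail, with 7.37 in 403, 7.34 in 9583 and 7.20 in 5560. The change was 1.26 ± 0.24 (limma adjusted p = 0.00103), higher in 13 of 14. No fold is given, since the untreated level lies near the lower quartile of the mean levels of all genes (4.02) and was not shown to be above background. Over the lymphomas it followed the change of the fibroblast list at r = 0.85 (permutation p = 1.90e-04, adjusted 0.00513 over 27 relations) and rho = 0.79 (adjusted 0.031), the only one of the 27 marker relations that passed. Without 403 and 5560, the lymphomas farthest from the median of the Eda2r change, r was 0.72, and within the 11 lymphomas it was 0.92. At no fibroblast change Eda2r stood at 0.09 ± 0.24 (adjusted p = 0.879). Lymphoma 9583 had a change of 2.12 in Eda2r at a fibroblast change of 1.30, and 1467 had 0.21 at -0.10. Which cells the Eda2r signal came from was not tested.

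Plk2 ran from 7.16 in 3769 through 8.50 to 10.33 in 2581 in untreated arrays and from 8.52 in 7050 through 10.00 to 11.61 in 403 in ADR arrays. The groups overlapped, with 4 ADR arrays above every untreated one. The change was 1.39 ± 0.33 or 2.61-fold (limma adjusted p = 0.0051), higher in 11 of 14, and it spread more widely than that of any other member, from -0.95 in 2949 to 3.90 in 403. Its correlation with the fibroblast list was r = 0.51 (permutation p = 0.0613, adjusted 0.296), and 0.20 without 403 and 2949. At no fibroblast change Plk2 was 0.42 ± 0.51 (adjusted p = 0.703). Lymphoma 2581 had a fibroblast change of 2.51 and a Plk2 change of -0.41. A second, dim Plk2 probe set at 3.68 showed no change that passed (0.03 ± 0.07, adjusted p = 0.79).

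**Figure D3:**
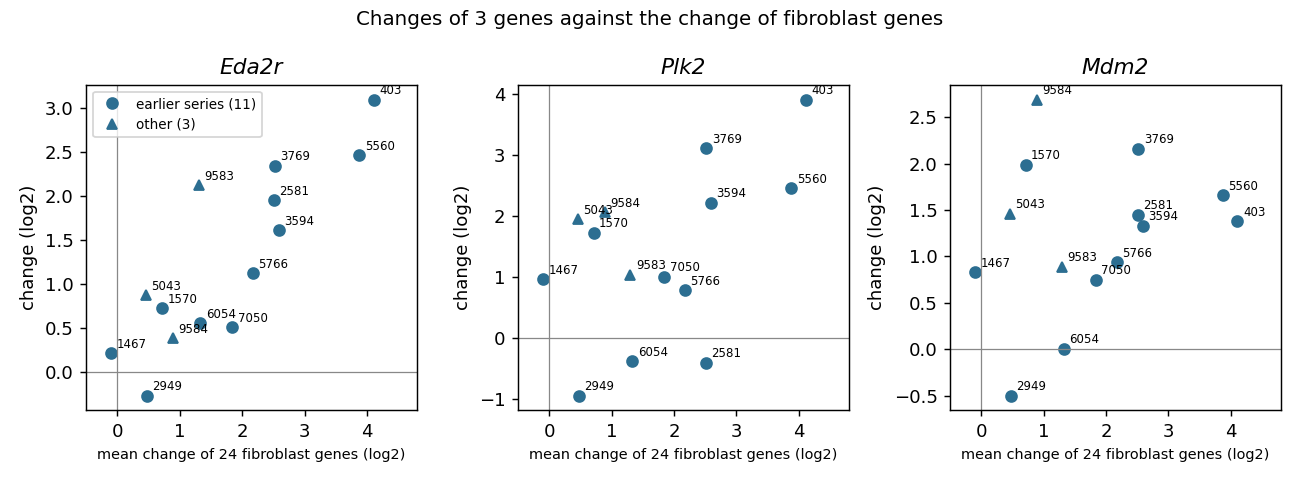
Change of Eda2r, Plk2 and Mdm2 (y axes, log2, separate scales) against the mean change of 24 fibroblast genes (x axis, log2), 1 point per lymphoma; circles are the 11 lymphomas of the earlier series and triangles the other 3. Eda2r climbs along the x axis (r = 0.85), Plk2 does so loosely (r = 0.51), and Mdm2 is scattered (r = 0.24).

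Read by lymphoma, the members ranged from no rise to a rise of every gene. Lymphoma 2949 had the highest untreated level of 6 of the 9 genes and was among the top 3 for 8 of them, and it had the lowest change of 7 of the 9. Only 2 of its 9 genes were higher after ADR, and their median change was -0.50. Cdkn1a, the gene of the cell cycle inhibitor p21 and a p53 target outside the members, was already at 12.28 in untreated 2949 and at 12.31 after ADR, while the mitotic list fell by 4.11 in this lymphoma. Because a change is computed from the untreated level, the untreated level and the change of a gene are not independent, and no correlation between them is given.

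In lymphomas 6054 and 7050 the median change was also near 0. In 6054 the median change was 0.0068, with 5 of 9 genes higher, and in 7050 it was -0.01, with 4 of 9 higher, the members of 7050 going both ways from Plk2 at 1.00 and Mdm2 at 0.75 to Zmat3 at -0.45 and Ppm1d at -0.73. After ADR 7050 was among the lowest 3 lymphomas for 7 of the 9 genes. Cdkn1a changed by 0.30 in 6054, 0.23 in 7050 and 0.03 in 2949, its 3 smallest changes, and the mitotic list nevertheless fell by 2.25 in 6054 and fell by 1.59 in 7050. Counted by genes higher after ADR, the other end was 1570, 1467 and 9583. All 9 genes were higher there, with median changes of 1.74, 0.83 and 1.26. The smallest of these changes was that of Ppm1d in 1467, at 0.08. The ADR array of 1570 is the one that stood apart in RNA quality (Gapdh 3′ minus 5′ signal of 0.92, next array 0.38). In 1467 all 9 genes were higher at a fibroblast change of -0.10, but at a macrophage change of 1.94. Over the lymphomas, r with the macrophage list was highest for Zmat3 (0.54), Phlda3 (0.53) and Ccng1 (0.42). None of these passed after adjustment (permutation, adjusted p = 0.296, 0.296 and 0.511). It was lowest for Plk2 (-0.03) and Eda2r (0.25). The macrophage change was not used as a covariate, so the part of macrophage RNA in these rises was not tested. Lymphoma 5560 was split, with Eda2r up 2.46, Plk2 2.45 and Phlda3 2.38, while Mdm4, Trp53inp1, Zmat3 and Ppm1d were lower.

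**Figure D4:**
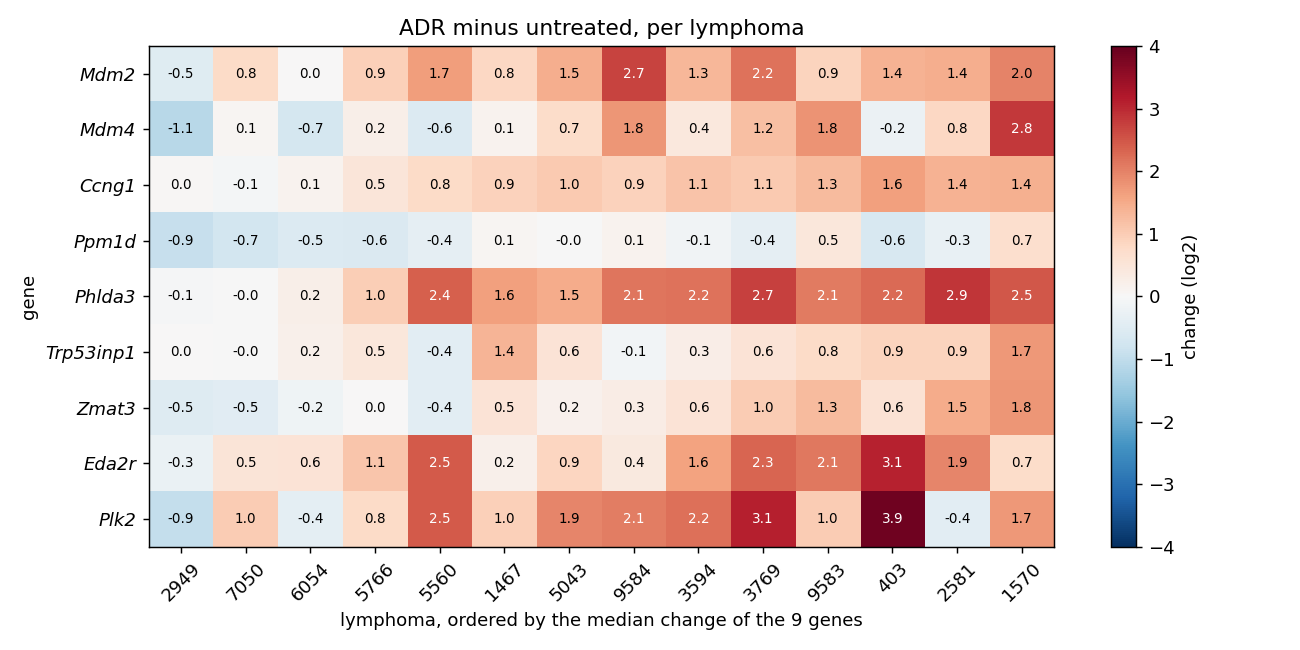
ADR minus untreated change (colour and printed value, log2) of the 9 genes (y axis) in each lymphoma (x axis, ordered from left to right by the median change of the 9 genes). Lymphomas 2949, 7050 and 6054 at the left are pale or blue for most genes, the row of Ppm1d is blue in 10 of 14 lymphomas, and 1570 at the right is red throughout.

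The changes of the members covaried over the 14 lymphomas. All 36 pairs had a positive r, with a median of 0.58, against a median of 0.0046 and 50.5% positive over all pairs of the genes tested. After adjustment over the 36 pairs 14 passed by r and 10 by rho. The points share arrays, since each lymphoma gives all its genes from the same 2 arrays. The closest pair was Ccng1 and Phlda3, at r = 0.90 and rho = 0.78 (permutation, adjusted p = 0.00144 and 0.0114), with r = 0.80 without 7050 and 2949 and 0.91 within the 11 lymphomas. Mdm4 and Ppm1d, neither of which passed the test on its mean change, followed each other at r = 0.85 (adjusted p = 0.00144), and at 0.69 without 1570 and 9583. Both were highest in 1570, 9583 and 9584 and lowest in 2949.

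Zmat3 had the most partners by r, with 5 of 8 pairs passing, of which the pair with Ppm1d did not pass by rho (permutation, adjusted p = 0.054). It followed Ccng1 at r = 0.81 and rho = 0.91 (adjusted p = 0.00477 and 7.20e-04), Mdm4 at r = 0.79 (0.00518) and Trp53inp1 at r = 0.78 (0.00636). These r were 0.73 with Ccng1 without 7050 and 2949, and 0.62 with Mdm4 without 1570 and 9583. With Trp53inp1 r was 0.64 without 1570 and 5560. The ADR array of 1570 is the one that stood apart in RNA quality. Mdm2 followed Phlda3 at r = 0.79 (adjusted p = 0.00477), which was 0.59 without 2949 and 6054 and 0.88 within the 11. Mdm2 and Mdm4 had r = 0.68 (adjusted p = 0.0256) but only 0.48 without 2949 and 6054, and rho = 0.63 did not pass (adjusted p = 0.054). Other Mdm2 pairs leaned on the same lymphomas, with Mdm2 and Ccng1 going from 0.63 to 0.33 and Mdm2 and Plk2 from 0.70 to 0.43. The lowest values were those of Eda2r with Ppm1d (0.0068), Trp53inp1 (0.05) and Mdm4 (0.07), and of Plk2 with Trp53inp1 (0.06).

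The untreated levels showed a tighter group among fewer genes. Of 36 pairs 31 were positive, with a median r of 0.36 (0.0046 over all pairs of genes), and 7 passed by r and 6 by rho; these level families were added after the data were seen. Ccng1 and Phlda3 had r = 0.93 (permutation, adjusted p = 1.80e-04), Phlda3 and Zmat3 0.91 (1.80e-04), Mdm2 and Phlda3 0.88 (6.00e-04), Ccng1 and Zmat3 0.84 (0.00234) and Mdm2 and Ccng1 0.78 (0.00583). For the first 2 of these pairs the permutation p of 1e-05 is the smallest that 100000 permutations can give. Without the lymphomas farthest from the median, r was 0.91 for Ccng1 and Phlda3 and 0.79 for Ccng1 and Zmat3 (without 2581 and 403), and 0.89 for Phlda3 and Zmat3 (without 2949 and 2581). Without 2949 and 6054 it was 0.77 for Mdm2 and Phlda3 and 0.64 for Mdm2 and Ccng1. Within the 11 lymphomas Ccng1 and Phlda3 had r = 0.95. Lymphomas with more Ccng1 before any drug thus also had more Phlda3, Zmat3 and Mdm2. No pair with Eda2r or Plk2 passed, and Eda2r stood at -0.02 with Ccng1 and -0.05 with Phlda3.

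After ADR other pairs were closest. Of 36 pairs 26 were positive, with a median r of 0.46 (50.9% positive and a median of 0.0084 over all pairs of genes), and 8 passed by r and 10 by rho. Mdm4 and Ppm1d had r = 0.87 (permutation, adjusted p = 0.00216), Eda2r and Plk2 0.83 (0.00351), Ppm1d and Trp53inp1 0.83 (0.00351), Mdm4 and Trp53inp1 0.82 (0.00351) and Trp53inp1 and Zmat3 0.80 (0.00454). For Mdm2 no pair passed by r. By rho it passed with Phlda3 (rho = 0.74, adjusted p = 0.023; r = 0.54, adjusted p = 0.131). With Plk2 r was 0.52 and with Mdm4 0.47, neither passing, and it was 0.15 with Ccng1 and -0.10 with Zmat3, which became 0.47 and 0.22 without 9584 and 1467. Nor did a gene's untreated level follow its ADR level over the lymphomas in a way that passed. Of 9 relations 0 passed after adjustment, by r or by rho, with 3 and 1 at an unadjusted permutation p under 0.05, and the highest were Eda2r at 0.60, Zmat3 at 0.59 and Ppm1d at 0.57 (permutation, adjusted p = 0.0974 each). For Mdm2, Phlda3 and Plk2 r was -0.13, -0.11 and -0.15.

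**Figure D5:**
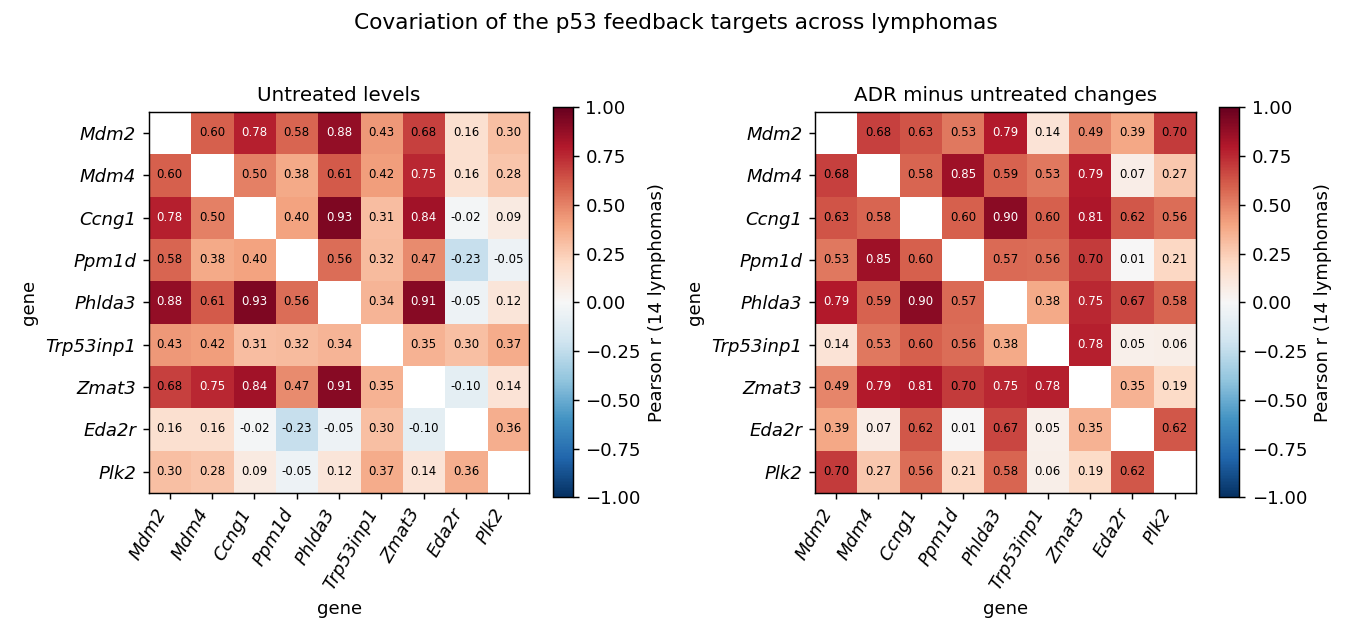
Pearson r over 14 lymphomas (colour and printed value) between the 9 genes (both axes), for untreated levels at left and for ADR minus untreated changes at right. At left Mdm2, Ccng1, Phlda3 and Zmat3 form a dark block of 0.68 to 0.93, with Eda2r and Plk2 pale; at right every cell is positive.

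Other p53 targets gave a mixed picture beside the members. Of 15 measured targets for arrest and repair 6 were higher and 1 lower, with a median change of 0.37, beside 15.3% higher and 13.4% lower among all genes. In the covariate fit 1 was higher and 1 lower, beside 5.83% and 5.13% of all genes, with a median of 0.03. Cdkn1a was higher in 14 of 14 lymphomas, from 10.65 ± 0.88 to 11.77 ± 0.40 (1.11 ± 0.19, limma adjusted p = 3.49e-04), and was 0.96 ± 0.33 with the fibroblast covariate (adjusted p = 0.0764). Ptpn14, a phosphatase, and Plk3, a relative of Plk2, rose by 0.99 ± 0.22 and 0.86 ± 0.16 (adjusted p = 0.0034 and 9.14e-04), but were at 0.02 and 0.09 at no fibroblast change. Ddb2, which recognises ultraviolet damage, fell by 1.11 ± 0.24 in the mean (adjusted p = 0.00206) and in 12 of 14 lymphomas. At no fibroblast change it stood at -2.12 ± 0.28 (limma adjusted p = 7.53e-04).

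Of 13 targets linked to cell death 5 were higher and 1 was lower, with a median of 0.31, against 2 higher and 1 lower at no fibroblast change. For this list and the next, the shares among all genes were 15.3% higher and 13.4% lower. In the covariate fit they were 5.83% and 5.13%. The death receptor Fas rose by 1.02 ± 0.26 (limma adjusted p = 0.00679, 12 of 14) and Casp1 by 0.47 ± 0.10 (0.00235, 11 of 14). Siva1 fell by 0.31 ± 0.11 (0.0414). The membrane protein gene Perp rose by 0.67 ± 0.21 (0.0269, 11 of 14) but was dim, at means of 3.18 untreated and 3.85 after ADR. Both lie below the lower quartile of all genes (4.02), and Perp was not shown to be above background. With the fibroblast covariate Casp1 kept its call (0.64, adjusted p = 0.0241), whereas Fas (0.24, 0.786), Perp (0.98, 0.101) and Siva1 (-0.38, 0.229) did not. That fit left the macrophage list at a median change of 1.63, and the part of macrophage RNA in the Casp1 rise was not tested. Of 17 targets in metabolism and other roles 9 were higher and 0 lower (limma, with 2 lower at an unadjusted p under 0.05), and the median was 0.43. In the covariate fit 2 of them were higher and 1 was lower. Adenylate kinase Ak1 rose by 2.34 ± 0.32 (adjusted p = 5.18e-05) and epoxide hydrolase Ephx1 by 1.64 ± 0.31 (9.21e-04), each in 14 of 14 lymphomas, and Dcxr by 1.13 ± 0.28 (0.00598). None of these 3 passed in the covariate fit, where Ak1 was at 1.11 (adjusted p = 0.099), Ephx1 at 0.75 (0.382) and Dcxr at 0.55 (0.538).

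Of 31 measured genes that act on p53, 3 were higher, 9 lower and 19 did not pass, with a median change of -0.16. Among all genes 15.3% were higher and 13.4% lower. The covariate fit had 5 higher and 2 lower, beside 5.83% and 5.13% of all genes, and a median of 0.06. The largest falls were those of 3 kinase genes, with Chek1 at -1.54 ± 0.18 (limma adjusted p = 1.58e-05), Atm at -0.65 ± 0.12 (6.16e-04) and Chek2 at -0.65 ± 0.14 (0.00256), each in 13 of 14 lymphomas. With the fibroblast covariate Chek1 kept its call (-1.33, adjusted p = 0.012), while Atm (-0.40, 0.223) and Chek2 (-0.76, 0.0653) lost theirs. Hipk2, a kinase that phosphorylates p53, was higher at 0.81 ± 0.16 (0.0014), and so were the acetyltransferases Ep300 at 0.40 ± 0.07 (4.90e-04) and Crebbp at 0.38 ± 0.12 (0.0213). In the covariate fit Ep300 and Crebbp passed (0.54 and 0.81, adjusted p = 0.00955 and 0.00503) and Hipk2 did not (0.82, 0.0821).

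By the rule of highest r among the 14 changes over 18184 other genes, the 5 genes closest to Ccng1 were Zfp365 (0.91), Dcxr (0.90), Exoc4 (0.89), Dennd2c (0.89) and Sh3bgrl2 (0.88). Of these Dcxr is on the list of p53 targets, and Zfp365 was higher after ADR by 1.64 ± 0.37 (limma adjusted p = 0.00312). The 5 closest to Mdm2 were Gtse1 (0.86), Ddias (0.85), Setd3 (0.84), Senp2 (0.84) and H2-DMa (0.82). Gtse1, which encodes a G2 and S phase protein that binds p53, had a mean change of -0.37 ± 0.18 (adjusted p = 0.154). Its changes thus followed those of Mdm2 by Pearson r without a rise in the mean. These values are a description, since the closest of many genes are close in part by selection.

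The 11 lymphomas of the earlier series and the other 3 were compared as a split that the labels give. Whether it marks a technical batch was not tested. Of all genes 1 differed in its change (0.0055%), with 999 at an unadjusted p under 0.05, and none of the 9 members did by either measure. Mdm4 had a mean change of 0.29 in the 11 and 1.43 in the 3 (limma p = 0.0771, adjusted 0.864), and Ppm1d -0.35 and 0.20 (p = 0.0522, adjusted 0.864). Mdm2 stood at 1.09 and 1.68, Ccng1 at 0.81 and 1.08, Phlda3 at 1.60 and 1.90, Trp53inp1 at 0.54 and 0.41, Zmat3 at 0.40 and 0.58, Eda2r at 1.30 and 1.12 and Plk2 at 1.31 and 1.67. Within the 11 lymphomas alone the same 6 genes were higher.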

How the data were processed

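Levels were read from the authors' deposited log2 values for 45101 probe sets on 28 arrays, made with RMA and Partek 6.5 per the submitters' processing notes. No genome build is stated in the labels or headers. Probe sets were named with an annotation dated 2016, with symbols updated through RefSeq (GRCm38.p6). The 34945 with 1 gene gave 18193 genes, each by the probe set with the highest mean.

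The paired test was limma (version 3.58.1, R 4.3.3) with lymphoma as a block and a threshold of 0.05 after Benjamini-Hochberg adjustment over all genes, and checked on simulated data. The labels give the pairing. Deviations from the group means correlated at 0.27 to 0.61 within lymphomas (median -0.08 between them), and in 10 of 14 lymphomas both arrays matched each other best (not in 1467, 2949, 5766 and 6054). The number of arrays limits the precision. Correlations used 100000 permutations, and sign flips were enumerated (16384).

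The members and lists were chosen with earlier results of these data known. Named outside the members were Cdkn1a, per p53 list up to 3 rises and 3 falls past the threshold, and the 5 genes closest to Mdm2 and Ccng1. The alternatives tried were other blocks, probe sets, scalings, filters, weights, a fibroblast covariate and fewer lymphomas; leaving out 403 and 5560, which had the largest fibroblast changes, and the covariate for Mdm2 minus Mdm4 were chosen after seeing the data. Figures were drawn with matplotlib 3.10.9.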

Additional observations from a re-analysis of the deposited data

How the results depend on the processing

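Across 26 alternatives (25 for Eda2r, which a filter at a mean level of 6 removes) no member that passed changed direction. Ppm1d reversed, with no call, to 0.01 with the fibroblast covariate, where 1061 genes were higher and 933 lower, 0 members were higher, and Mdm2 minus Mdm4 went from 0.69 to 0.02. With median centring, which moved the median of all genes from -0.0011 to -0.10, 4207 genes and 1 member (Ppm1d) were lower. Without each lymphoma in turn the members called lower ranged from 0 to 1. Without the replicate block 1933 genes were higher and 1723 lower, and Trp53inp1 lost its call (adjusted p = 0.0739), as it did with the probe set of largest variance (0.13); pairing changed no other member's call. With the mean of all probe sets the pairs Mdm2 and Mdm4 (r = 0.53, adjusted p = 0.102) and Trp53inp1 and Zmat3 (0.57, 0.079) no longer passed, and Ppm1d and Phlda3 (0.64, 0.0412) did. Dim probe sets, such as that of Eda2r in untreated arrays, can have compressed changes, which was not tested.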
